A study of Bos taurus with 6 samples.

Results

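The small leucine-rich proteoglycans are secreted proteins built of leucine-rich repeats, most of which bind collagen fibrils and many of which carry chondroitin, dermatan or keratan sulfate chains. In cartilage they set fibril thickness and spacing, link fibrils to other matrix molecules and to the cell surface, and bind growth factors such as TGF-beta. By protein sequence they fall into classes: DCN (decorin), BGN (biglycan) and ASPN (asporin) in class I, LUM (lumican), FMOD (fibromodulin), PRELP and KERA (keratocan) in class II, EPYC (epiphycan) and OGN (osteoglycin) in class III, and CHAD (chondroadherin) in class IV. These 10 genes were taken by symbol from a table of 27607 bovine genes, and each symbol matched 1 Ensembl identifier. With a mean of at least 10 normalized counts, 8 of the 10 entered the test together with all other genes above that level, 13180 in all. EPYC and KERA lay below it and are given by their values.

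The RNA came from chondrocytes of the deep zone, the layer of articular cartilage nearest the bone, taken from bovine knees and sequenced after infection with a lentivirus that carries bovine CREB5 under doxycycline control. CREB5 is a DNA-binding protein related to CREB and ATF factors. All cells had been selected in G418 (500 µg/ml, 11 days) and then kept for 3 days on low attachment plates in 10% FBS, with added growth factors, TGFb2 (20 ng/ml) and, at 100 ng/ml, TGFa. The control cells therefore carried the same lentivirus and received the same growth factors. In 3 libraries (Dox-) no doxycycline was given and in 3 (Dox+) it was, at 1 µg/ml by the labels' treatment protocol, while the series' design text gives that number in mg/ml. The labels name 3 independently collected knees and number the libraries of either group from 1 to 3, without tying a number to a knee. The comparison asks which genes differ when CREB5 expression is forced, here among the small leucine-rich proteoglycans. No library had doxycycline without the CREB5 lentivirus, so an effect of the drug itself cannot be told apart from that of CREB5.

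Libraries held between 20063379 reads (Dox+ 3) and 122366790 reads (Dox+ 2), so the group with doxycycline held both the shallowest and the deepest. CREB5 itself ranged from 308 to 510 normalized counts without doxycycline and from 12413 to 21964 with it, as the labels of all 6 libraries require. PRG4, the lubricin gene of superficial cartilage, went from 571 to 1705 up to 253217 to 565979. Of 8 chondrocyte markers all had reads, and their summed level was 154089 to 300999 normalized counts in Dox- and 103603 to 119887 in Dox+; ACAN (aggrecan) and COL9A1 passed the test as lower and MATN3 (matrilin-3) as higher. Markers of synovial fibroblasts summed to 112723 to 155943 and 95159 to 120244, with 0 of 6 past the unpaired test. The markers of that list differed in sign: with the replicate block limma called DPT (dermatopontin) higher (3.99-fold, adjusted p = 0.0014) and THY1 (2.22-fold, adjusted p = 0.0049) and FAP (1.76-fold, adjusted p = 0.015) lower. Endothelial (131 to 294 and 153 to 225) and leukocyte and macrophage markers (206 to 462 and 381 to 714) were low in both groups, with 0 of 3 tested genes past the test in each. Smooth muscle and pericyte markers summed to 2337 to 7953 and 5670 to 16972, although ACTA2, smooth muscle actin, fell 4.18-fold (limma adjusted p = 0.0031); DES, desmin, had a 3.23-fold higher level (adjusted p = 0.36 unpaired and 0.0014 in pairs). The skeletal muscle genes MYOD1, MYOG, ACTA1 and MYH1 had 0 reads in every library. Tendon markers summed to 1367 to 2840 and 2095 to 2453, from MKX and SCX, with TNMD at 0 reads and 0 of 2 past the test, paired or not. Osteoblast and osteocyte markers summed to 664 to 1886 and 300.5 to 1246, mostly from SP7 (1.81-fold lower, limma adjusted p = 0.74, and 0.045 with the block), with DMP1 at 0 reads. Fat cell markers summed to 147 to 315 and 303 to 460, with LEP at 0 reads and ADIPOQ 3.42-fold higher (limma adjusted p = 0.14, and 0.014 with the block). In bulk RNA, fewer cells of a type and less RNA per cell cannot be told apart. The share of counts from mitochondrially encoded genes was 1.71% to 2.20% without and 2.31% to 3.20% with doxycycline; what part these differences have in the results below was not tested.

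With doxycycline, CHAD fell 7.05-fold. PRELP was 3.17-fold lower and LUM 1.94-fold higher, and over all 6 libraries limma called both only when the libraries were paired by number. BGN, FMOD, DCN, ASPN and OGN did not pass. EPYC had no read without doxycycline and few with it, and KERA had none in either group. Of the 8 tested members, limma without pairing called 0 higher, against 2.52% of all tested genes, and 1 lower, against 0.357%. At an unadjusted p under 0.05, limma had LUM higher and CHAD, PRELP and FMOD lower. No share over all genes was computed at that level. DESeq2 without pairing called 1 member higher and 2 lower, and over all tested genes 542 higher and 159 lower. With the library number as a replicate block limma called 1 higher (background 4.86%) and 2 lower (background 1.65%). The median log2 fold change was -0.70 over the 8 members and -0.0036 over all tested genes, with 7 of the 8 below 0.

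**Figure D1:**
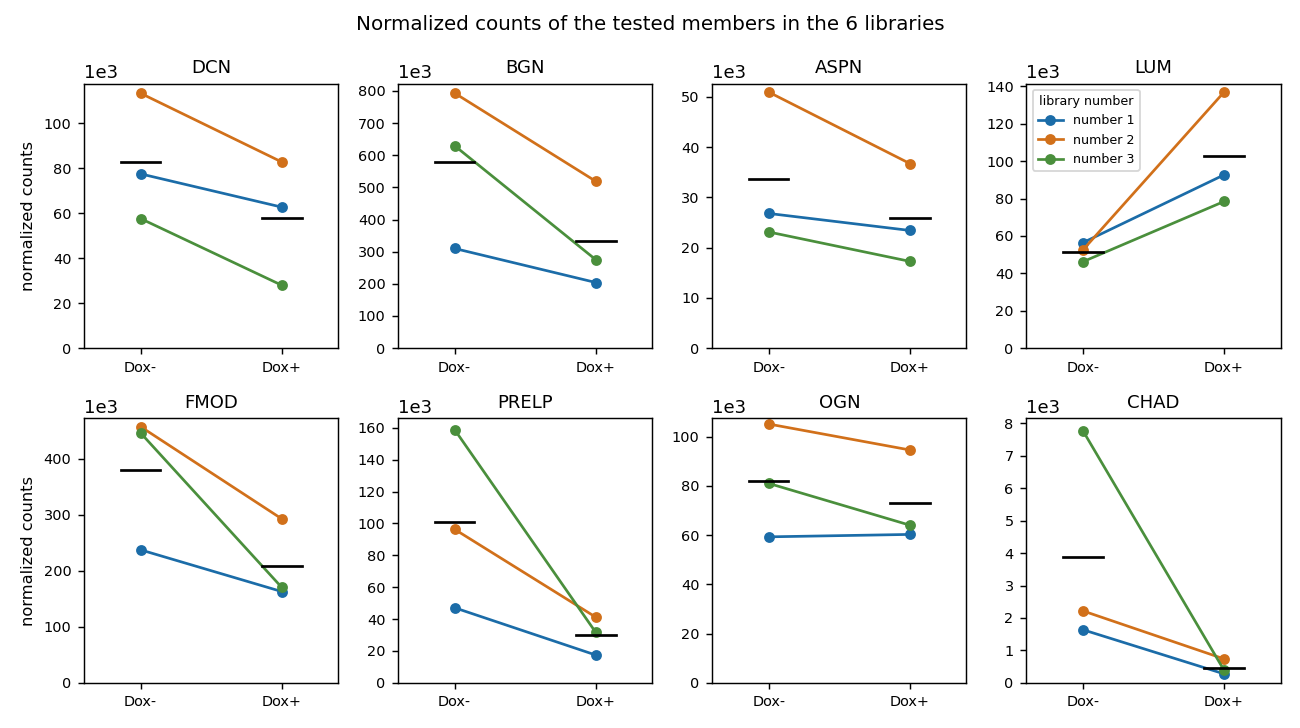
Normalized counts (vertical axes from 0) of the 8 tested members in Dox- and Dox+ libraries. Points are single libraries, lines join libraries of the same number and black bars are group means (n = 3). LUM lies higher in every Dox+ library than in any Dox- library, PRELP and CHAD lie lower, and the groups overlap for DCN, BGN, ASPN, FMOD and OGN.

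Groups without overlap were found for 3 of the 8 tested members. LUM was higher (8.88% of all tested genes were higher without overlap) and PRELP and CHAD were lower (6.29%). Within every same-numbered pair, 6 members were lower in the Dox+ library, namely DCN, BGN, ASPN, FMOD, PRELP and CHAD, against 19.0% of all tested genes. LUM was higher in each pair, against 19.5%. OGN was lower in 2 of 3 pairs.

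Class I holds the members closest to decorin. BGN (ENSBTAG00000005250), which carries chondroitin or dermatan sulfate chains and binds collagen, growth factors and Toll-like receptors, took the largest share of reads among the members in each library, between 0.397% and 1.34% of all normalized counts. Its level was 309894, 793227 and 629469 normalized counts in Dox- 1, 2 and 3, against 204057, 518827 and 274888 in Dox+ 1, 2 and 3. The groups overlapped widely, since Dox+ 2 lay above Dox- 1. The fall within pairs was 1.52-fold, 1.53-fold and 2.29-fold, and the fitted log2 fold change was -0.80 (SE 0.47, 95% interval -1.87 to 0.26, limma adjusted p = 0.67, and 0.15 with the replicate block). Neither fit called it.

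DCN (ENSBTAG00000003505), whose product binds type I and type II collagen fibrils and TGF-beta, stood at 77431, 113251 and 57572 normalized counts in Dox- 1, 2 and 3. In Dox+ 1, 2 and 3 it stood at 62644, 82711 and 27943. Each Dox+ library was below its same-numbered partner, by 1.24-fold, 1.37-fold and 2.06-fold, but Dox+ 2 was above Dox- 1 and Dox- 3. The log2 fold change was -0.60 (SE 0.41, 95% interval -1.54 to 0.34, limma adjusted p = 0.77, and 0.18 with the block), so a fall of up to 2.91-fold lies within the interval.

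ASPN (ENSBTAG00000011847), the class I protein with an aspartate-rich start that also binds collagen and TGF-beta, was 26785, 50920 and 23098 normalized counts in Dox- 1, 2 and 3, against 23401, 36702 and 17250 in Dox+ 1, 2 and 3. The libraries numbered 2 were highest in both groups. Within pairs the fall was between 1.14-fold and 1.39-fold. Fitted, this was a log2 fold change of -0.36 (SE 0.36, 95% interval -1.18 to 0.45, limma adjusted p = 0.85, and 0.37 with the block).

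Members of class II went in opposite directions. LUM (ENSBTAG00000001745), a keratan sulfate proteoglycan best known for the spacing of collagen fibrils in the cornea, had 56374, 52443 and 46187 normalized counts in Dox- 1, 2 and 3. In Dox+ 1, 2 and 3 it had 92658, 136924 and 78428. All 3 Dox+ libraries lay above all Dox- libraries, and LUM was the tested member with the tightest Dox- group, with a highest library 1.22-fold above the lowest. The mean went from 51668 ± 5138 to 102670 ± 30506 (SD, n = 3). The rise within pairs was 1.64-fold, 2.61-fold and 1.70-fold. On the log2 scale the change was 0.96 (SE 0.25, 95% interval 0.38 to 1.53), with a limma adjusted p of 0.12 and, with the replicate block, of 0.027. The call with the block was lost without pair 2 (log2 fold change 0.74, limma adjusted p = 0.17). It was kept without pair 1 (adjusted p = 0.025) and without pair 3 (adjusted p = 6.0e-05). LUM was the only tested member with a fitted change above 0.

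PRELP (ENSBTAG00000017834), whose basic, arginine- and proline-rich start binds heparan sulfate and which also binds collagen, moved the other way. It stood at 47110, 96313 and 158813 normalized counts in Dox- 1, 2 and 3, against 17439, 41190 and 31596 in Dox+ 1, 2 and 3. The highest Dox+ library lay below the lowest Dox- library, although the Dox- libraries themselves differed by up to 3.37-fold. The mean was 100745 ± 55984 in Dox- and 30075 ± 11948 in Dox+ (SD, n = 3). Within pairs it was 2.70-fold, 2.34-fold and 5.03-fold lower. The log2 fold change of -1.66 (SE 0.46, 95% interval -2.71 to -0.62) had a limma adjusted p of 0.13, and of 0.0022 with the block. Without Dox- 1 it passed also without the block (adjusted p = 0.016).

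FMOD (ENSBTAG00000014912), which competes with LUM for collagen and takes part in fibril assembly and cross-linking, had 237683, 457818 and 446698 normalized counts in Dox- 1, 2 and 3. The Dox+ libraries 1, 2 and 3 had 163149, 293076 and 170564. Dox+ 2 exceeded Dox- 1, so the groups overlapped, while each pair went down, by 1.46-fold, 1.56-fold and 2.62-fold. In the fit the log2 fold change was -0.86 (SE 0.37, 95% interval -1.70 to -0.016, unadjusted p = 0.047 and adjusted p = 0.46 in limma, adjusted p = 0.11 with the block). KERA (ENSBTAG00000014340), the keratan sulfate proteoglycan of the cornea, had 0 reads in each of the 6 libraries. The limit that a count of 0 allows, 3 reads, was worth between 1.32 and 6.98 normalized counts in single libraries and covers counting error only.

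In class III, OGN (ENSBTAG00000011824), a small collagen-binding protein first isolated from bone, differed least between the groups. It had 59273, 105066 and 80964 normalized counts in Dox- 1, 2 and 3, against 60253, 94527 and 63998 in Dox+ 1, 2 and 3. Pair 1 differed by 1.02-fold in the upward direction and pairs 2 and 3 by 1.11-fold and 1.27-fold in the downward direction. Its log2 fold change was -0.16 (SE 0.28, 95% interval -0.80 to 0.49, limma adjusted p = 0.92), and it was 0.044 without Dox- 2. Its interval allows a fall of up to 1.74-fold and a rise of up to 1.40-fold.

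EPYC (ENSBTAG00000007990), a proteoglycan of growth plate cartilage, had 0 reads in Dox- 1, 2 and 3 and 3, 61 and 4 reads in Dox+ 1, 2 and 3. These were worth 5.08, 26.9 and 9.30 normalized counts. Most of the 68 reads came from Dox+ 2, the deepest library, but Dox- 1 and Dox- 3, which held 83206236 and 87470127 reads, had none. Set against 3 reads in every Dox- library, the limit a count of 0 allows (on average 2.70 normalized counts), the Dox+ mean was 5.09-fold higher, and without Dox+ 2 it was 2.66-fold higher. These folds leave out the counting error of the Dox+ reads, of which Dox+ 1 and Dox+ 3 held 3 and 4. With no filter on low values, limma gave EPYC an adjusted p of 0.022 among 17653 genes. EPYC entered that fit only through its Dox+ reads, so this p-value is no support for a rise.

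CHAD (ENSBTAG00000021302), the class IV member, binds type II collagen and the integrin made of ITGA2 and ITGB1, and carries no long sugar chain of the decorin kind. It had 1639, 2220 and 7778 normalized counts in Dox- 1, 2 and 3, against 278, 739 and 391 in Dox+ 1, 2 and 3. All Dox+ libraries lay below all Dox- libraries, and Dox- 3 alone was more than 3-fold above the other Dox- libraries. The mean went from 3879 ± 3389 to 469 ± 241 (SD, n = 3). Within pairs the fall was 5.89-fold, 3.00-fold and 19.9-fold. The log2 fold change was -2.82 (SE 0.57, 95% interval -4.11 to -1.53), with a limma adjusted p of 0.034 and, with the block, of 0.0021. The call was lost without Dox- 2 (adjusted p = 0.069), Dox+ 1 (0.12) or Dox+ 3 (0.18), and the log2 fold change then lay between -3.05 and -2.50. Without Dox- 3 the fall was -2.14 and kept its call (adjusted p = 0.047).

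**Figure D2:**
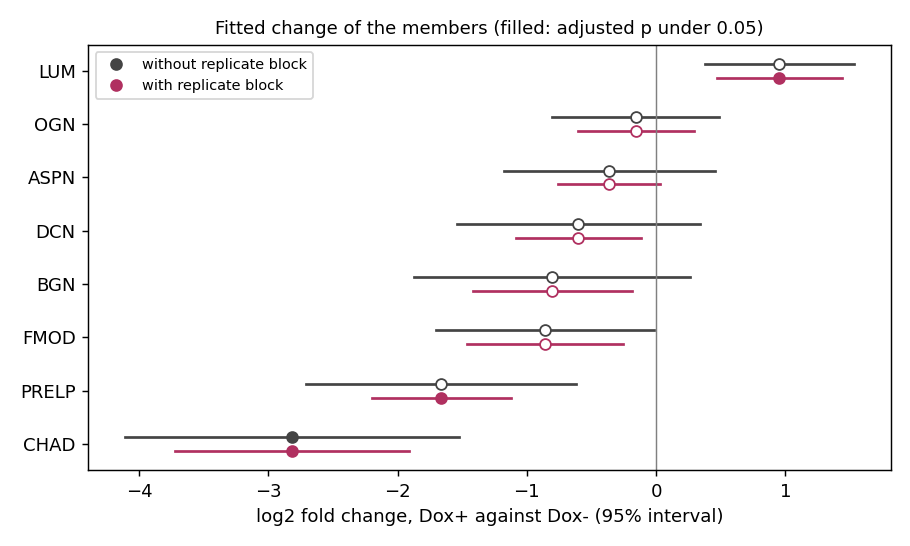
Fitted log2 fold change of Dox+ against Dox- (horizontal axis) for the 8 tested members, with 95% intervals, from limma without (grey) and with (red) the replicate block. Filled points have an adjusted p under 0.05: CHAD in both fits, PRELP and LUM with the block only.

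In the authors' deposited table, 6 of the 10 members had an adjusted p under 0.05, EPYC among them, and KERA had no p-value. There LUM (log2 fold change 0.88, adjusted p = 0.00032) and EPYC (0.25, adjusted p = 0.015) were higher, where 5.24% of the 14664 genes with an adjusted p were. EPYC had 0 reads in every Dox- library and reached a p-value only through its Dox+ reads. The authors' p-value for EPYC is therefore no support for a rise. Lower were CHAD (-2.68, adjusted p = 1.9e-12), PRELP (-1.59, adjusted p = 8.5e-10), BGN (-0.72, adjusted p = 0.0036) and FMOD (-0.77, adjusted p = 0.0037), against 2.05% of those genes in the authors' deposited table. The signs of the 8 tested members were the same in the authors' deposited table as in limma. The authors' unadjusted p-values for DCN (0.0064) and LUM (1.2e-05) lay near those of DESeq2 with the replicate block (0.0065 and 1.1e-05). In DESeq2 without the block they were 0.19 and 0.00016. The authors' calls are therefore not taken as separate from the pairing. BGN and FMOD passed in the authors' deposited table and in DESeq2 with the replicate block (adjusted p = 0.0030 and 0.0038). They did not pass in limma, nor in edgeR with the block (adjusted p = 0.12 and 0.10).

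The members also varied between the libraries of a group, in part along the library number. In 5 of the 8 tested members (DCN, BGN, ASPN, FMOD and OGN) the 3 numbers stood in the same order in both groups, against 25% of all tested genes. For 6 of the 8, all but LUM and CHAD, the range among the 3 Dox- libraries was wider on the log2 scale than the fitted change with doxycycline, as it was for 10994 of the 13180 tested genes. That range holds every difference between libraries, not only those tied to a number. The median log2 range among the Dox- libraries was 1.06 over the members and 0.65 over all tested genes. Summed, the members took up 1.60%, 2.82% and 2.71% of each library's counts in Dox- 1, 2 and 3, against 1.21%, 2.23% and 1.43% in Dox+ 1, 2 and 3, so the libraries numbered 1 held the smallest share in both groups.

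Likeness of the members' profiles over the 6 libraries was then compared. As a measure of likeness, the root mean square difference of the centred log2 values was smallest between BGN and FMOD (0.20), then between DCN and ASPN (0.27) and between OGN and ASPN (0.31). It was largest between LUM and CHAD (2.06). These values describe 6 libraries of 3 shared numbers and have no test. Among the 11520 other genes with a mean of at least 50, those nearest to CHAD were C1QL1, a secreted C1q-like protein (0.40), SYT12, a synaptotagmin (0.56), and CHI3L1, a secreted glycoprotein of chondrocytes (0.56). Since these genes were picked for their likeness to CHAD in the same libraries, their folds and p-values follow from that choice. C1QL1 fell 7.13-fold (limma adjusted p = 0.020). SYT12 was 3.84-fold and CHI3L1 3.56-fold lower without passing (adjusted p = 0.14 and 0.18). CHI3L1 shared the high Dox- 3 library, with 7230, 10746 and 39526 normalized counts in Dox- 1, 2 and 3.

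Several of these genes are neighbours in the genome. All 10 members matched RefSeq's gene table, which is for ARS-UCD2.0 and not for the build the files are on. EPYC, KERA, LUM and DCN follow each other with no other protein-coding gene between them, as do OGN, OMD, ASPN and ECM2, and FMOD, PRELP and OPTC. BGN and CHAD lie elsewhere. OMD encodes osteomodulin, a keratan sulfate proteoglycan of bone, ECM2 a matrix protein with leucine-rich repeats, and OPTC opticin, a class III protein of the eye.

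Neighbours differed in the sign or size of their fitted change, and of these differences only the ratios given next were tested. Beside OGN and ASPN, neither of which passed, OMD (ENSBTAG00000011836) fell from 475, 614 and 336 normalized counts in Dox- 1, 2 and 3 to 122, 89.6 and 121 in Dox+ 1, 2 and 3, with no overlap. That was 4.17-fold (limma adjusted p = 0.0088, and 0.051 without Dox+ 3). ECM2 (ENSBTAG00000024081) fell 2.27-fold, from 2845, 3652 and 1962 to 1384, 1242 and 1009, also with no overlap. Its limma adjusted p was 0.047, and it lay between 0.083 and 0.24 with any library but Dox- 3 left out. All 4 genes of this run overlap the span of CENPP in the RefSeq table. Exons were not compared and whether counting used the strand is not stated, so reads shared with CENPP were not tested for. CENPP itself had 123 to 184 normalized counts and a log2 fold change of -0.15 (limma adjusted p = 0.93). CHAD overlaps ACSF2, whose log2 fold change was 0.073 (limma adjusted p = 0.96), and FMOD overlaps an entry for a long noncoding RNA.

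**Figure D3:**
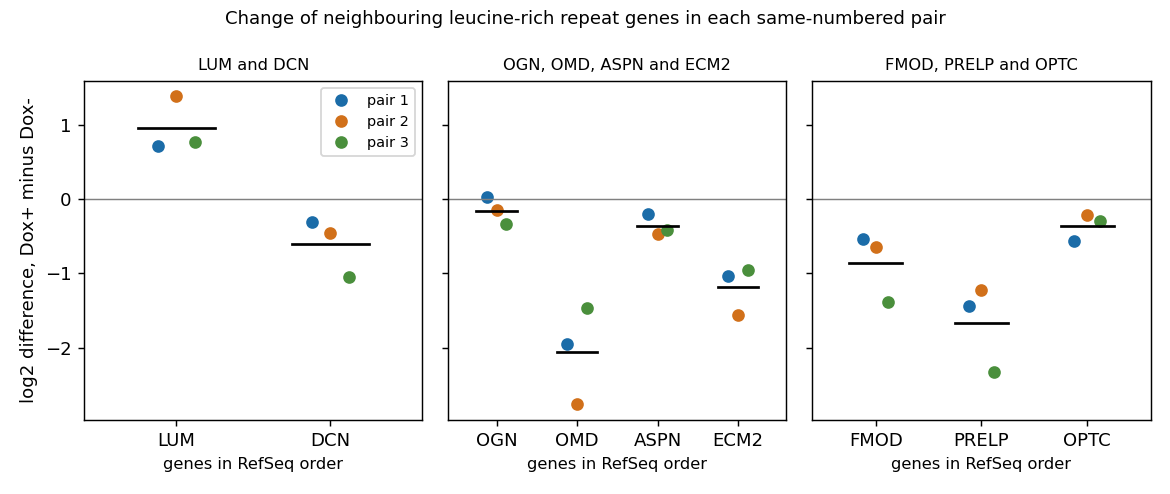
Difference of log2(normalized count + 1) between the Dox+ and Dox- library of each number (points) and fitted change (bars) for 3 runs of neighbouring genes in RefSeq order. LUM is above 0 and DCN below it in each pair, and OMD lies below both OGN and ASPN in each pair.

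Ratios within a library compare 2 genes free of the scaling between libraries. They are ratios of counts, not corrected for transcript length, so only their change between libraries can be read. LUM to DCN was 0.73, 0.46 and 0.80 in Dox- 1, 2 and 3, against 1.48, 1.66 and 2.81 in Dox+ 1, 2 and 3, a 2.94-fold rise with no overlap. PRELP to FMOD was 0.20, 0.21 and 0.36 in the Dox- libraries, against 0.11, 0.14 and 0.19 with doxycycline, 1.75-fold lower, and again the groups did not overlap. OMD to OGN was 3.77-fold lower with no overlap. In a two-sided exact permutation test each of these 3 ratios had p = 0.10 (0.13 when adjusted over the 4 ratios computed), which is the smallest p that 3 libraries against 3 allow. BGN to DCN behaved otherwise: it was 4.0, 7.0 and 10.9 in Dox- 1, 2 and 3, against 3.26, 6.27 and 9.84 in Dox+ 1, 2 and 3 (exact permutation p = 0.70, adjusted 0.70). This ratio differed by at most 1.23-fold within a pair and by more than 2-fold between the numbers 1 and 3. The 4 ratios were chosen after the values had been seen.

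**Figure D4:**
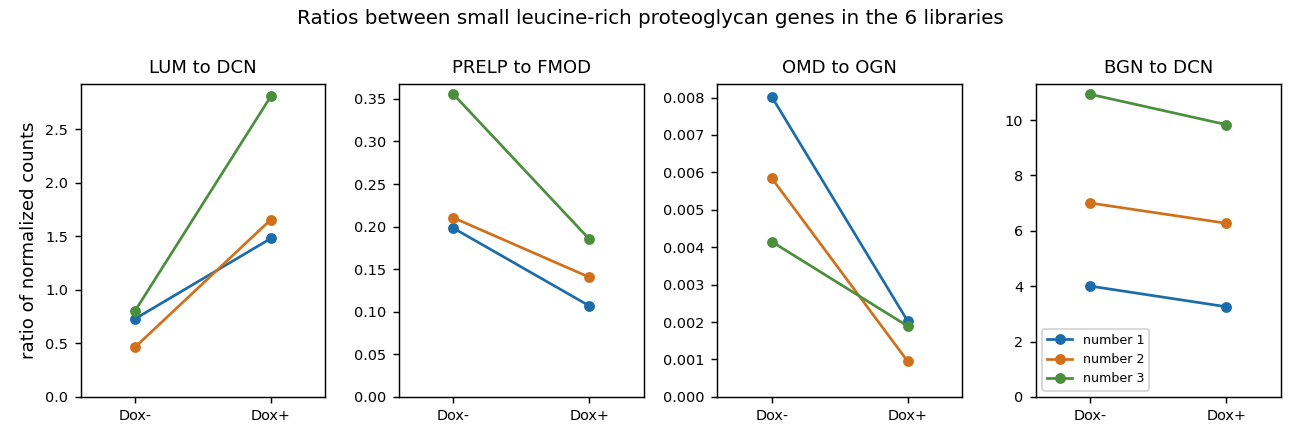
Ratios of normalized counts (vertical axes from 0) in the 6 libraries, with lines joining libraries of the same number. The groups separate for LUM to DCN, PRELP to FMOD and OMD to OGN, whereas BGN to DCN keeps the order of the numbers, from 4.0 to 10.9 in Dox- and from 3.26 to 9.84 in Dox+.

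Of 8 further matrix genes with leucine-rich repeats, 7 were tested, of which 0 rose and 2 fell (OMD and ECM2), with a median log2 fold change of -0.59. Over all tested genes, 2.52% rose and 0.357% fell. With the block 3 were lower, against 1.65% of all tested genes. The addition was PODN, podocan, which binds type I collagen. It had 494, 269 and 645 normalized counts in Dox- 1, 2 and 3, against 205, 118 and 147 in Dox+ 1, 2 and 3 (a limma fold of 2.88 downward, adjusted p = 0.088 unpaired and 0.0074 in pairs). TSKU, a secreted regulator of BMP and Wnt signals, was 1.27-fold lower (adjusted p = 0.63). NYX was below the filter.

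The collagens that these proteins bind held 15 tested genes of 16, with a median log2 fold change of -0.66. Limma called 0 higher (2.52% of all tested genes were) and 1 lower (0.357%). COL9A1, a chain of the type IX collagen that decorates type II fibrils, fell 5.60-fold, from 777, 1433 and 1460 normalized counts in Dox- 1, 2 and 3 to 212, 305 and 142 in Dox+ 1, 2 and 3 (limma adjusted p = 0.0066). With the block 5 were lower (1.65% of all tested genes were): COL9A1, COL11A2 (6.03-fold, adjusted p = 0.00024, and 0.055 without the block), COL2A1, COL6A1 and COL6A2. COL6A2, a chain of the type VI collagen that binds BGN and DCN, was 2.11-fold lower (adjusted p = 0.11 unpaired and 0.035 in pairs). COL12A1, a fibril-associated collagen that binds DCN and FMOD, was 2.04-fold higher and did not pass (adjusted p = 0.16). CHAD and PRELP were thus lower in the same libraries in which COL9A1 was lower, and in which the sum of chondrocyte markers was lower. The single markers in that sum differed. ACAN was also lower (4.78-fold, limma adjusted p = 0.034), as were COL2A1, COL11A1 and COMP without passing the unpaired test. MATN3 was 16.2-fold higher (adjusted p = 0.0068). SOX9 and HAPLN1 had log2 fold changes of -0.019 and -0.27 (adjusted p = 0.99 and 0.83). The part of these differences in the change of CHAD and PRELP was not tested.

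Among 21 enzymes that build chondroitin and dermatan sulfate chains, 1 rose (2.52% of all tested genes did) and 0 fell (0.357%). The median log2 fold change was -0.19. CHSY3, a chondroitin synthase, rose 3.94-fold, from 790, 574 and 556 normalized counts in Dox- 1, 2 and 3 to 2750, 2219 and 2532 in Dox+ 1, 2 and 3 (limma adjusted p = 0.0012, and at most 0.017 with any library left out). With the block, 2 were lower, against 1.65% of all tested genes. They were CSGALNACT1, which starts chondroitin chains (3.11-fold, adjusted p = 0.0010, and 0.29 without the block), and CHST3, a chondroitin sulfotransferase (1.85-fold, adjusted p = 0.032, and 0.14 without the block). XYLT1, which adds the first sugar of the chain, was 1.46-fold lower (adjusted p = 0.31). Of 7 tested keratan sulfate enzymes limma called 0, with or without the block, and 0 had an unadjusted p under 0.05. None of the 7 passed in edgeR or DESeq2 either. The smallest unadjusted p, 0.10, belonged to CHST1, a keratan sulfate sulfotransferase that was 1.52-fold lower. The next were B3GNT7, B4GALT1 and B3GNT2, with adjusted p between 0.73 and 0.95.

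Of 11 tested genes that process or break down these proteins, 1 rose (2.52% of all tested genes did) and 0 fell (0.357%). Their median log2 fold change was -0.032. MMP3, stromelysin-1, which cleaves proteoglycan core proteins, rose 32.8-fold, from 1448, 214 and 177 normalized counts in Dox- 1, 2 and 3 to 29990, 6416 and 10178 in Dox+ 1, 2 and 3 (limma adjusted p = 0.011, and 0.050 without Dox- 3 and 0.068 without Dox+ 3, where it did not pass). ADAMTS1, an aggrecan- and versican-cleaving protease, was 3.06-fold higher (limma adjusted p = 0.18, 0.0067 with the block and 0.027 unpaired without Dox- 1). BMP1, which removes the propeptide of BGN, was 1.2-fold lower (adjusted p = 0.74), and HTRA1, a serine protease that cleaves BGN, DCN and FMOD, 1.49-fold lower (adjusted p = 0.36).

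Of 14 ligands and receptors that members bind, 1 rose (2.52% of all tested genes did) and 0 fell (0.357%). Their median log2 fold change was 0.15. BMP2 rose 1.96-fold (limma adjusted p = 0.040), a call lost without any 1 library other than Dox- 1 (adjusted p between 0.073 and 0.22). ITGA2, the integrin chain of the CHAD receptor, had 6.74, 4.44 and 0.61 normalized counts in Dox- 1, 2 and 3, against 18.6, 17.2 and 67.4 in Dox+ 1, 2 and 3 and did not pass (adjusted p = 0.18). TGFB2 was 1.57-fold lower (adjusted p = 0.18), with TGFb2 protein added to the medium of both groups, and LRP1, an endocytic receptor of DCN, 1.54-fold lower (adjusted p = 0.32).

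**Figure D5:**
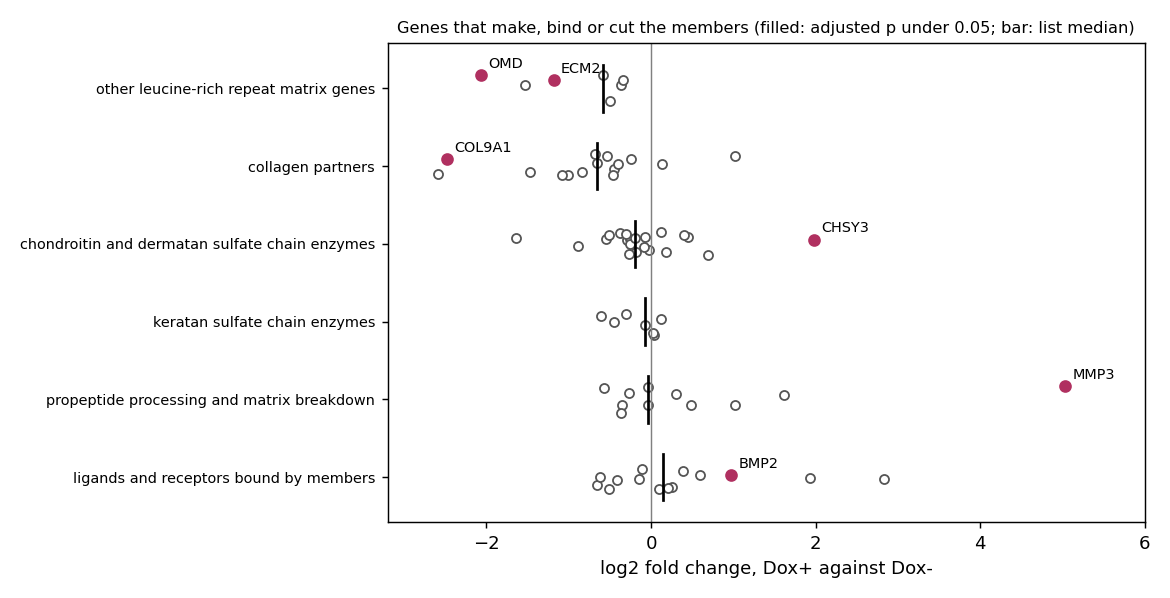
Log2 fold change of Dox+ against Dox- (horizontal axis) for each tested gene of 6 lists around the members, with vertical bars at list medians. Filled points have a limma adjusted p under 0.05 without the block: OMD, ECM2 and COL9A1 below 0, and CHSY3, MMP3 and BMP2 above 0.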

How the data were processed

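In the deposited expression table each signal value is a count that the authors divided by 1 size factor per library. A further deposited table gives, per the file headers, log2 fold changes, their standard errors and p-values for the authors' comparison. The sources used here do not state whether these were shrunken. For EPYC the deposited log2 fold change of 0.25 (SE 0.53) is too small against its SE for the authors' p-value beside it (0.00086). The same holds, less strongly, for other members, such as DCN (-0.52, SE 0.22, authors' unadjusted p = 0.0064). The deposited fold changes of the members are therefore not taken to be on the scale of the folds computed here. The submitters' processing notes name FastQC 0.11.3, MultiQC 1.2, STAR 2.5.2b, Salmon, DESeq2, ARS-UCD1.2 and bosTau9. Whole reads were recovered from the steps between values (100% whole within 0.01 read, or within the printed digits for large values). No 2 libraries of a group agreed within sampling noise (chi-square per degree of freedom 54.9 to 414).

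The test was limma 3.58.1 (R 4.3.3; trend, two-sided, group only) on log2(normalized count + 1) of 6 libraries, with Benjamini-Hochberg adjustment over 13180 genes and a threshold of 0.05. Fold changes are on that scale. Alternatives were other pseudocounts (0.5, 8), other filters (none, 50), TMM scaling, libraries left out, edgeR 4.0.16 and DESeq2 1.42.0 on the recovered reads, and the number as a block. Numbers were taken as pairs because same-numbered libraries deviated together (correlations 0.65, 0.44 and 0.21 over genes for the numbers 1, 2 and 3). Between libraries of different numbers the correlations lay between -0.59 and 0.18. The highest of these, Dox- 3 with Dox+ 2, was close to that of number 3, so the pairing is least secure there. The labels name 3 knees without saying that a number marks one. On simulated counts the limma step without the block called 8 of 50 genes changed 2-fold, 37 of 50 changed 4-fold and 46 of 50 changed 8-fold, with 4 false calls among 13180 genes. These counts were drawn for each library separately, with nothing shared by number, and the fit with the block was not run on them. They therefore do not give the error rate of the calls made with the block.

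The 10 members, CREB5 and PRG4 were to be named whatever their result, as were, of each list, called genes and the smallest p up to 4, and the 3 genes nearest to each called member; genes called only with the block were added. Members and lists were chosen with earlier results of these data known. CHST5 was not found by symbol. One cell type marker list is not reported here.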

Additional observations from a re-analysis of the deposited data

How the results depend on the processing

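Without pairing, 0 members were called higher and 1 lower in limma. The former was 1 with no filter, from EPYC, which entered only through its Dox+ reads. It was also 1 with DESeq2, and with the replicate block in limma, edgeR and DESeq2 (LUM). The latter was 2 with DESeq2 and with the replicate block in limma and edgeR (CHAD and PRELP), and 4 with DESeq2 and the block (also BGN and FMOD). Leaving out 1 library, or 1 pair with the block, gave 0 to 1 higher and 0 to 2 lower. Over all genes, 332 higher and 47 lower became 542 and 159 with DESeq2, 640 and 218 with the block, 591 and 190 with edgeR and the block, and 743 and 306 with DESeq2 and the block, and 139 to 934 and 9 to 537 with libraries left out. Over the 6 lists, 3 higher and 3 lower became 5 and 13 with DESeq2 and 6 and 14 with DESeq2 and the block. There were 10 lower with the block in limma or edgeR. With libraries left out, 1 to 8 were higher and 1 to 19 lower. Of 152 refits of the 8 members, 132 kept their direction and side of the threshold, 16 passed newly, 3 lost the call and 1 reversed. The log2 fold change of LUM passed at 0.99 (DESeq2), 0.96 (block), 0.96 (edgeR, block) and 0.96 (DESeq2, block), and that of PRELP at -1.74, -1.66, -1.65 and -1.66. BGN (-0.80) and FMOD (-0.85) passed in DESeq2 with the block. With libraries left out, LUM ranged from 0.73 to 1.13, PRELP from -2.13 to -1.25, CHAD from -3.43 to -2.07 and OGN from -0.37 to 0.044. The causes were not tested. With the block, leaving out a pair left each gene 1 residual degree of freedom. KERA and EPYC are limited by depth.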
